A study of Mus musculus with 27 samples.

Results

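The genes described here code for the kinases of the mitogen-activated protein (MAP) kinase cascades and for the dual-specificity phosphatases (Dusp), together with genes named after them. They were taken by name, as every gene of the H3K27ac table whose symbol begins with Mapk, Map2k, Map3k, Map4k, Mapkapk or Dusp followed by a number. The family was chosen with earlier results of these data known. The rule found 70 of the 16038 genes in the table, with 477 of its 70300 windows. By class they were 10 MAP kinases, 7 MAP2K, 17 MAP3K, 5 MAP4K, 3 MAP kinase-activated kinases, 10 MAP kinase phosphatases, 12 atypical Dusp genes and 6 scaffold or other genes.

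Chromatin immunoprecipitation sequencing was done on the macrophages that reside in the liver, Kupffer cells, taken from C57BL/6J mice by a sort labelled F4/80-Hi Tim4-Pos. Control diet and NASH diet were compared, the latter a diet that models non-alcoholic steatohepatitis, a fatty and inflamed liver. No genetic change is given for either group, and ages, pooling and time on the diet are not given in the sample labels. The file headers name the NASH diet by one time for the open chromatin list and by another name for the NASH lists of LXR and P300, so these may come from different times on the diet. H3K27ac, a histone mark of active promoters and enhancers, was measured in 2 libraries per diet, and LXR (a sterol-sensing nuclear receptor), ATF3 (a stress-induced transcription factor) and P300 (a histone acetyltransferase of enhancers) in 2 libraries per diet each. Whether the 2 libraries of a diet came from different mice is not stated, so a p-value measures only how far these libraries spread, and part of that spread may be technical. Tissue was digested with flavopiridol, an inhibitor of transcription elongation, present in both groups.

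MAP kinase cascades pass a signal from the cell surface through kinases that phosphorylate each other in turn, from MAP4K through MAP3K and MAP2K to the MAP kinases ERK, JNK and p38. The MAP kinase phosphatases of the Dusp family remove phosphate from both the threonine and the tyrosine of an active MAP kinase, and several are themselves early response genes of the pathway they switch off. In macrophages these cascades carry signals from Toll-like and cytokine receptors to inflammatory genes, with Map3k8 (TPL2) feeding ERK and Mapkapk2 (MK2) acting below p38 on the stability of cytokine mRNA.

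Promoter sequences of 4 members are printed, 3 for their H3K27ac results and Dusp6 for its sites. Dusp5 and Dusp1 have raised windows a short way past their starts, not over the printed bases, and Mapk9 has a lowered window next to its start. Dusp6, whose H3K27ac was not called, has the sites of all 3 factors on the lists of both diets at its start. Each sequence is the 250 bases before the transcription start site (TSS), 5′ to 3′ on the gene's strand, from RefSeq on GRCm38.p6. Capitals mark matches, on either strand, to the CRE (TGACGTCA) of ATF and CREB factors, to its core (TGACG), which the CRE also contains, to the AP-1 site (TGANTCA), to the ETS site (CCGGAA) and to the CArG box of serum response factor.
Dusp5, chr19:53528895-53529144, plus strand: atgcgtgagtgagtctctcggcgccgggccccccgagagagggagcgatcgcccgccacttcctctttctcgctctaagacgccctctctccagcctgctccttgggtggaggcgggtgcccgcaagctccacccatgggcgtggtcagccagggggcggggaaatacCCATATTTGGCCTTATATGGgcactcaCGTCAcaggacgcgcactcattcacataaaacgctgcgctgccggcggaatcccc
Dusp1, chr17:26508473-26508722, minus strand: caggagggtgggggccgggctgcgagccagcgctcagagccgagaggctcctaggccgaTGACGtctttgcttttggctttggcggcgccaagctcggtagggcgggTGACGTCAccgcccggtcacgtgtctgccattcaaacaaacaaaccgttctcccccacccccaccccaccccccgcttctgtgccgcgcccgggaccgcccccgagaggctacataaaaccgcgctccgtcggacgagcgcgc
Dusp6, chr10:99262981-99263230, plus strand: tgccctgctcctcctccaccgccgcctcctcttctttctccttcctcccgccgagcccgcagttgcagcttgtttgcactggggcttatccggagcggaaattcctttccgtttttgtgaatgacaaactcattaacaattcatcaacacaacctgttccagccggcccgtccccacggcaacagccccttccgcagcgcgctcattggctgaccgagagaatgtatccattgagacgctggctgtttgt
Mapk9, chr11:49846501-49846750, plus strand: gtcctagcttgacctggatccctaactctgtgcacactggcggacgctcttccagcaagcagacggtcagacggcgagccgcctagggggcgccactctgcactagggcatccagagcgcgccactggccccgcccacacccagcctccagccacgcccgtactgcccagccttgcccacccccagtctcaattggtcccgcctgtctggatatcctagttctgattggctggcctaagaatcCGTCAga
The Dusp5 promoter held 2 adjacent CArG boxes, starting 82 and 72 bases before the TSS, and a CRE core starting 55 bases before it. The CArG box was added to the search after this sequence had been seen. The Dusp1 promoter held 1 full CRE, which starts 143 bases before the TSS at chr17:26508608-26508615, and a separate core starting 191 bases before the TSS. Dusp6 had no match to any of these motifs in its window, and Mapk9 had a single CRE core.

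RefSeq promoters were found for 55 of the 70 members, 70 promoters in all. A full CRE occurred in 2.86% of them (Dusp1 and Dusp8), against 1.55% of all 32851 promoters and 2.40% of the 15062 promoters of genes that have a window in the table. The CRE core occurred in 28.6%, against 17.8% and 24.1%, the ETS site in 21.4%, against 12.0% and 18.6%, and the AP-1 site in 5.71%, against 6.75% and 5.13%. Dusp5 alone among the members had a CArG box (1.43%, against 1.47% and 1.14%). These shares are descriptions of the letters and were not tested.

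H3K27ac was given by the authors in windows of open chromatin, as sequenced tags scaled to 10000000 per library (normalised tags), and each window was assigned to the gene with the nearest TSS, which need not be the gene it acts on. Of the 477 member windows, 129 lay within 1000 bp of the TSS and 348 farther away, with a median distance of 9306 bp. For 109 of the near windows this TSS could be compared with those of the RefSeq promoters, and it matched for 100. The libraries held 9468035 and 22615879 tags (control) and 18749728 and 19231109 tags (NASH). Member windows took 0.720% (exact binomial 95% interval 0.703 to 0.738) and 0.705% (0.693 to 0.717) of the tags in windows in the control libraries, and 0.733% (0.720 to 0.747) and 0.709% (0.696 to 0.723) in the NASH libraries. The shares of the diets overlapped. Intervals cover counting error only.

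The Kupffer cell label was checked against 11 markers, all of which carried H3K27ac in every library. Their summed level was 2505 to 2511 normalised tags in the control libraries and 1524 to 1704 in the NASH libraries, and 6 of the 11 were lowered with both scalings described next. Timd4, which codes for the Tim4 protein used in the sort, fell from 257 and 256 to 21.3 and 26.0, which goes against the Tim4-Pos label of the NASH libraries as far as H3K27ac at the gene reflects the surface protein. Marco, a scavenger receptor gene of Kupffer cells, fell from 109 and 61.5 to 6.93 and 9.36. These were the 2 largest decreases, and Clec4f, Adgre1, Cd163 and Slc40a1 were lowered as well. Not called with either scaling were Cd5l (489 and 497 to 482 and 448), Clec1b (368 and 451 to 417 and 372), Csf1r, Folr2 and Vsig4. Sums of other markers were 500 to 609 and 464 to 466 for monocytes (Plac8 lowered, Ly6c2 raised with TMM only), 100 to 114 and 66.0 to 71.5 for neutrophils (Csf3r lowered with the authors' scaling only), 6.63 to 15.8 and 20.3 to 33.8 for T cells (Cd3d raised), 16.9 to 29.2 and 13.5 to 22.4 for B cells. They were 94.2 to 138 and 66.0 to 74.7 for sinusoidal endothelium (Cdh5 and Stab2 lowered), 22.2 to 23.9 and 27.7 to 30.2 for hepatocytes (Apoa1 raised with TMM only), 13.7 to 16.4 and 10.4 to 12.3 for stellate cells, and 13.7 to 18 and 24.4 to 40.0 for cholangiocytes (Spp1 raised). The cholangiocyte rise was that of Spp1 (1.06 and 1.77 to 24.0 and 15.1), while Epcam was not called (16.9 and 11.9 to 16.0 and 9.36). Cd4 among the T cell markers and Ttr among the hepatocyte markers were tested and not called either. No marker with a window was at 0 in every library. The part of these shifts in the results below was not tested, and a change in the mix of cells cannot be told apart from a change within each cell.

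Among the MAP kinase and Dusp genes, H3K27ac was raised at Dusp5 and Map4k3 and lowered at Mapk9, Mapk8, Map2k6, Dusp3, Map4k2 and Map3k13 in NASH, under both ways of scaling the libraries. In all, 59 members had enough tags to be tested on the sum of their windows. With the authors' scaling 2 were raised (3.39%) and 7 lowered (11.9%) at an adjusted p under 0.05, beside 2.83% and 10.8% of all 11791 genes tested (limma, Benjamini-Hochberg adjustment). TMM, which scales the libraries to a common typical gene, called 5 members raised (8.47%) and 6 lowered (10.2%), beside 7.11% and 6.06% of all genes. The shares called thus lay near those of all genes, apart from the 10.2% lowered with TMM, which are 6 genes.

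The median gene changed by -0.29 on the log2 scale with the authors' scaling and by -0.01 with TMM. A call said to hold with 1 scaling only is set against the other of these limma fits, not against the count tests. All log2 changes below are of the normalised tags plus 1, NASH over control, relative to the median of all genes or windows under the authors' scaling, while each adjusted p tests the change before that median is taken off. On this scale the 59 members had a median of 0.10 and ran from -1.61 (Dusp26, not called) to 2.35 (Dusp5), with 36 above and 23 below 0. The 11 members not tested (Mapk11, Mapk15, Map2k1, Map3k10, Map3k15, Map2k3os, Mapk8ip2, Dusp9, Dusp14, Dusp15 and Dusp27) reached at most 7.39 normalised tags in any library. Leaving out NASH library 2 left no member called by limma (3 raised and 7 lowered at an unadjusted p under 0.05), and leaving out NASH library 1 left 0 raised and 3 lowered (Mapk9, Map2k6 and Dusp3; unadjusted 1 and 15), where the lone library is assumed to vary as the controls do. Count tests on the recovered tags called Dusp5 and Map4k3 raised and Mapk9 and Map2k6 lowered with DESeq2, and 5 raised and 6 lowered with edgeR, which called Dusp2 and not Dusp1 among the raised.

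MAP4K genes code for the kinases at the top of the cascades, and of the 5 genes 1 was raised and 1 lowered with the authors' scaling (beside 2.83% and 10.8% of all genes), and 3 were raised and 1 lowered with TMM (beside 7.11% and 6.06%). Their median change was 0.80, beside 0.10 over all tested members. Map4k3 (GLK), a kinase linked to nutrient sensing, carried 84.5 and 54.4 normalised tags over its 19 windows in the control libraries and 142 and 109 in the NASH libraries. Every NASH library was above both controls, and the log2 change was 1.15 ± 0.23 (SE, n = 2 per diet; limma adjusted p = 0.0174, and 6.49e-05 with TMM). With each library left out in turn, the change ran from 0.95 (without control library 2) to 1.37 (without control library 1).

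Map4k1 (HPK1), a MAP4K of blood cells, had 44.4 and 44.2 normalised tags in control and 72.5 and 60.8 in NASH libraries. The groups did not overlap, but the call depended on the scaling: the log2 change of 0.86 ± 0.25 had a limma adjusted p of 0.135 with the authors' scaling and 0.00819 with TMM. Map4k4 (HGK), which acts towards JNK, went from 37.0 and 31.8 to 58.7 and 41.6, a log2 change of 0.80 ± 0.29 (limma adjusted p = 0.241, and 0.0308 with TMM). Map4k2 was lowered, from 48.6 and 39.8 to 18.7 and 13.5, a log2 change of -1.13 ± 0.33 (limma adjusted p = 0.00621, and 0.00773 with TMM). Most of that signal came from a window 405 bp before its TSS (chr19:6340652-6340858), which held 28.5 and 23.9 tags in control and 10.7 and 8.32 in NASH libraries. Map4k5, the remaining member of the class, was not called (log2 change 0.11).

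In the MAP3K class 2 of 15 tested genes were lowered with the authors' scaling (beside 10.8% of all genes) and 1 of them with TMM (beside 6.06%), which is near the background. By limma, edgeR or DESeq2 0 were raised (0 raised and 4 lowered by limma at an unadjusted p under 0.05). Map3k13 (LZK), an activator of JNK, fell from 22.2 and 16.8 normalised tags to 6.93 and 3.64, a log2 change of -1.46 ± 0.46 (limma adjusted p = 0.0142, and 0.0170 with TMM). These are low values, and the intron window 16817 bp past its TSS (chr16:21908686-21908886) fell from 9.51 and 7.52 to 0.530 and 0.520, below the floor of 1.60 and 1.56 that 3 tags set in those libraries, and DESeq2 did not call it (adjusted p = 0.195). Map3k20 (ZAK), the kinase of the ribotoxic stress response, went from 249 and 186 to 159 and 140. Its log2 change relative to the median was -0.24 ± 0.17, and its call with the authors' scaling (limma adjusted p = 0.0425) was lost with TMM (0.361).

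Map3k1, the MAP3K with the highest sum, held 454 and 412 normalised tags in control and 491 and 402 in NASH libraries, and the groups overlapped (log2 change 0.33 ± 0.12, limma adjusted p = 0.865). Map3k8 (TPL2), the kinase between Toll-like receptors and ERK, held 416 and 390 in control and 384 and 346 in NASH libraries, with a log2 change of 0.14 ± 0.12 (limma adjusted p = 0.444, and 0.592 with TMM). In Map3k11, whose sum was not called, 1 intron window 3217 bp past the TSS was lowered with the authors' scaling only, from 16.9 and 19.9 to 5.33 and 7.28. That window had a site of each of the 3 factors on the control lists and of none on the NASH lists.

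Of the 6 tested MAP2K genes, only Map2k6 was called, lowered with both scalings (beside 10.8% and 6.06% of all genes). Map2k6 (MKK6), an activator of p38, fell from 246 and 187 normalised tags to 132 and 94.1, with both NASH libraries below both controls (log2 change -0.65 ± 0.19, limma adjusted p = 0.00206, and 0.00695 with TMM). The decrease was called in 2 of its windows, both on the control list of open chromatin only. They lay 26713 bp before the TSS (chr11:110372289-110372489; 41.2 and 14.2 to 6.93 and 5.72) and 31148 bp past it (chr11:110430150-110430350; 41.2 and 33.6 to 12.8 and 15.1). DESeq2 called neither window (adjusted p = 0.168 and 0.290). Without control library 1 their log2 changes were -0.85 and -1.01, against -1.53 and -1.09 with all libraries. Map2k1 (MEK1), which activates ERK, had 1 window with 4.22 and 3.10 tags in control and 3.20 and 2.60 in NASH libraries, too few to test.

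Among the MAP kinases themselves both JNK genes of the table were lowered and Mapk3 and Mapk14 were not called. Mapk9 (JNK2) fell from 152 and 126 normalised tags to 77.3 and 48.4, a log2 change of -0.88 ± 0.23 (limma adjusted p = 0.00186, and 0.00174 with TMM). Mapk8 (JNK1) fell from 73.9 and 74.7 to 32.0 and 43.2, a log2 change of -0.69 ± 0.26 (limma adjusted p = 0.0153, and 0.0458 with TMM). In both genes the groups did not overlap, which was also so for Mapk3 and Mapk14, neither of them called. In the class 2 of 8 tested MAP kinase genes were lowered, beside the 10.8% of all genes.

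The decrease at Mapk9 was strongest next to its start. The window 618 bp before the TSS (chr11:49846033-49846233), upstream of the printed promoter, fell from 37.0 and 39.8 to 9.60 and 3.64, a log2 change of -2.22 ± 0.41 (limma adjusted p = 0.00119, and 0.00126 with TMM). A window 748 bp past the TSS fell from 25.4 and 29.6 to 12.8 and 7.80 with the authors' scaling only (limma adjusted p = 0.0312, and 0.0681 with TMM). Between them, the window over the printed promoter held 10.6 and 10.2 in control and 12.8 and 6.24 in NASH libraries, and the groups overlapped. In Mapk8 the called window lay in an exon 18040 bp past the TSS (chr14:33392884-33393084) and fell from 16.9 and 17.7 to 4.27 and 6.24, with the authors' scaling only.

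Mapk3 (ERK1) held 86.6 and 77.4 normalised tags in control and 73.1 and 72.8 in NASH libraries. Its log2 change relative to the median was 0.12 ± 0.22, and it was not called (limma adjusted p = 0.655, and 0.769 with TMM). For Mapk14 (p38α) the sums were 113 and 112 in control and 129 and 123 in NASH libraries (log2 change 0.44 ± 0.18, limma adjusted p = 0.608, and 0.0962 with TMM). An intron window of Mapk14, 5767 bp past the TSS and on the NASH-diet list of open chromatin only, went from 8.45 and 8.84 to 18.7 and 18.7, called with TMM only. Mapk6 (ERK3), an atypical MAP kinase, had among the highest levels per length of window in the family, 261 normalised tags per kb in control and 256 in NASH, and was not called.

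Among the 3 MAP kinase-activated kinase genes 0 were called on their sums by limma, edgeR or DESeq2 (0 raised and 1 lowered by limma at an unadjusted p under 0.05). Mapkapk2 (MK2) held 401 and 400 normalised tags in control and 346 and 382 in NASH libraries (log2 change 0.15 ± 0.12, limma adjusted p = 0.450). A window of Mapkapk3, 28351 bp past its TSS (chr9:107260938-107261152), was raised from 0 and 3.10 to 9.60 and 12.5 with both scalings (log2 change 2.83 ± 0.68, limma adjusted p = 0.0280). The size of that change is uncertain, since the control library at 0 has a floor of 3.17 normalised tags: it was 1.75 without control library 1 (not called, limma adjusted p = 0.118), 3.93 without control library 2 and 1.54 with a pseudocount of 5. Without NASH library 1 or 2 it was not called either (3.06 and 2.56), nor was it by DESeq2 (adjusted p = 0.167). The 4 tested scaffold or other genes, with Mapk1ip1l the highest (129 and 82.7 against 99.7 and 81.6), ran from 0.09 to 0.27, and 0 were called by limma, edgeR or DESeq2 or had an unadjusted limma p under 0.05.

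The MAP kinase phosphatases included the largest increase of the family. Dusp5, a nuclear phosphatase of ERK, rose from 16.9 and 8.40 normalised tags to 58.1 and 48.9, a log2 change of 2.35 ± 0.36 (limma adjusted p = 4.84e-04, and 1.40e-06 with TMM). Both called windows lie past the printed promoter, and their distances are from the TSS used for the windows. For Dusp5 that TSS lies downstream of the RefSeq TSS at which the printed promoter ends. The first window, 89 bp past the TSS used for the windows (chr19:53529307-53529507), rose from 10.6 and 3.10 to 20.8 and 20.8. The second window, in the intron 423 bp past the same TSS (chr19:53529560-53529922), rose from 5.28 and 2.65 to 25.6 and 19.8. Their log2 changes were 1.93 ± 0.47 and 2.56 ± 0.45 (limma adjusted p = 0.0359 and 0.00402). The change at the first was 1.26 without control library 2 (not called) and was not called by DESeq2 (adjusted p = 0.0915). Without NASH library 1 or 2 neither window was called. The window over the promoter itself held 1.06 and 0.880 in control and 3.73 and 5.20 in NASH libraries, too few tags to test.

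Dusp1 (MKP-1), which dephosphorylates p38 and JNK and restrains cytokine production in macrophages, had the largest sum of the family. It carried 820 and 846 normalised tags in control and 968 and 856 in NASH libraries over 31 windows. The NASH libraries lay above the controls by little, and the log2 change of 0.42 ± 0.09 was called with TMM (limma adjusted p = 0.0400) and not with the authors' scaling (0.369), edgeR (0.0652) or DESeq2 (0.0578). Single windows moved in opposite directions.

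The window 881 bp past the Dusp1 TSS (chr17:26507477-26507706), in an exon, rose from 38 and 41.1 to 86.4 and 78.5, a log2 change of 1.31 ± 0.24 (limma adjusted p = 0.0123, and 0.00229 with TMM). The window 354 bp past the TSS went from 39.1 and 31.4 to 71.5 and 59.3 and was called with TMM (limma adjusted p = 0.00792), edgeR (0.00333) and DESeq2 (0.0382). With the authors' scaling its adjusted p was 0.0440, but its change before the median was taken off fell short of the log2 change of 1 that a window's call also needs. Windows 1127 bp past the TSS and 23588 bp before it were called with TMM only, from 19.0 and 29.2 to 50.7 and 32.8, and from 35.9 and 50.9 to 76.8 and 70.2. The highest window of Dusp1, 214 bp before the TSS and over the CRE, held 101 and 89.8 in control and 109 and 107 in NASH libraries and was not called. In contrast, a window 43275 bp past the TSS (chr17:26465090-26465305) fell from 27.5 and 20.8 to 5.87 and 0, a log2 change of -2.98 ± 0.64 (limma adjusted p = 0.00466, and 0.00493 with TMM). That size rests on the library at 0: the change was -1.69 without NASH library 2 (not called, limma adjusted p = 0.148), -4.31 without NASH library 1 and -1.76 with a pseudocount of 5, and DESeq2 did not call it (adjusted p = 0.746). At that window the ATF3 site was on the control list only and the P300 site on the NASH list only.

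**Figure D1:**
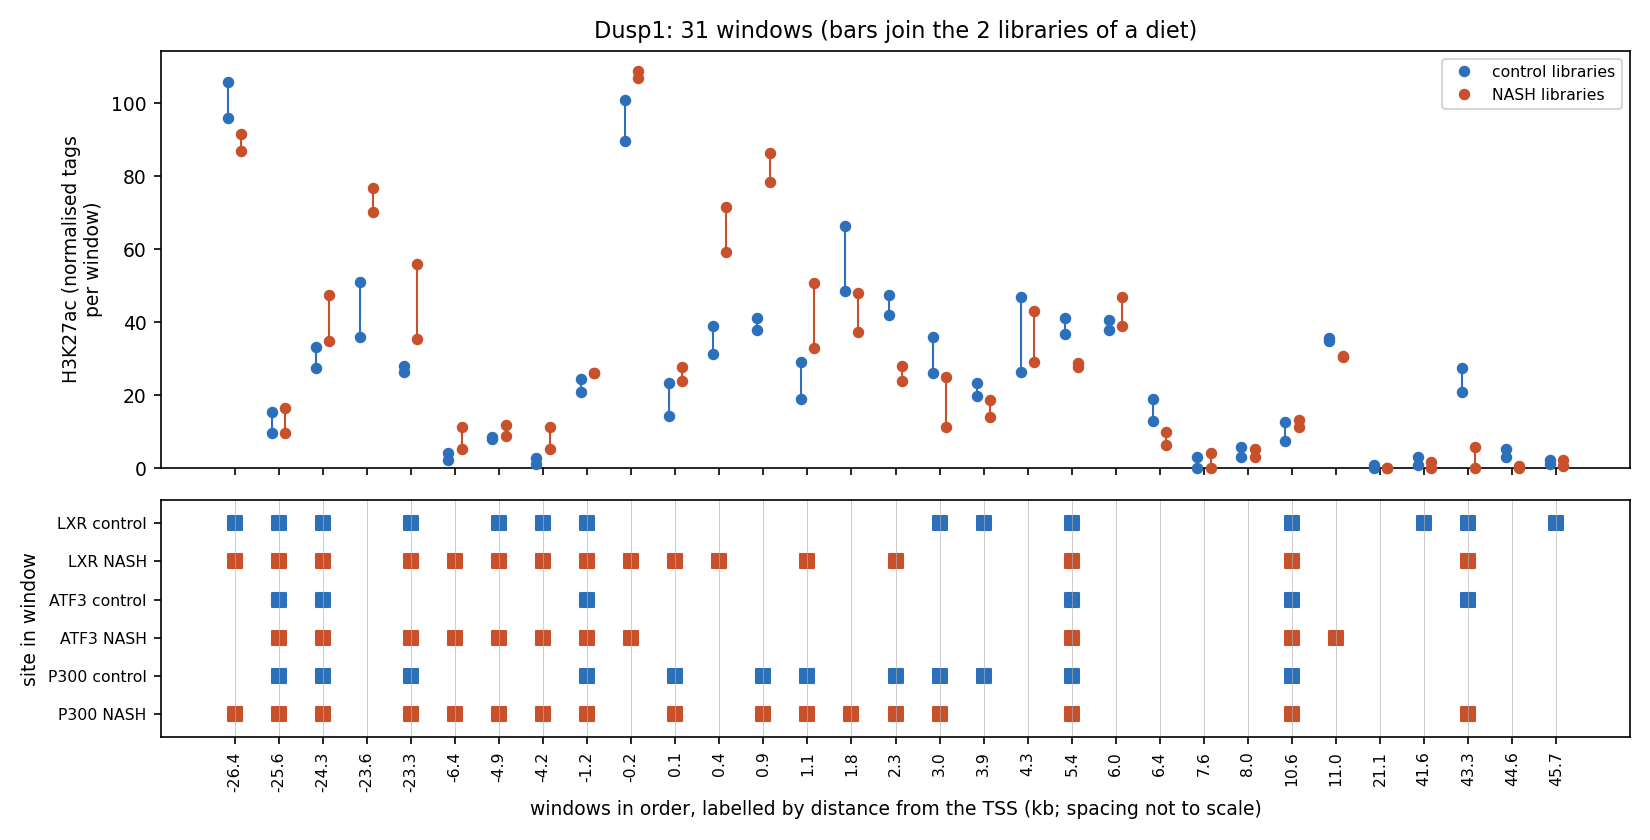
H3K27ac in the 31 Dusp1 windows, in order of their distance from the TSS in kb (horizontal axis, not to scale), with each library as a point above and the presence of a site of each factor and diet as squares below. Windows from 0.4 to 1.1 kb past the TSS are higher in NASH, and the window at 43.3 kb is lower.

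Dusp6, a cytoplasmic phosphatase of ERK, held 533 and 549 normalised tags in control and 573 and 499 in NASH libraries over 30 windows. The groups overlapped, and the log2 change was 0.27 ± 0.11 (limma adjusted p = 0.934, and 0.236 with TMM). In Dusp7 the sum was not called, but the window 786 bp before the TSS fell from 9.51 and 19.0 to 3.73 and 1.04 (log2 change -1.96 ± 0.57, limma adjusted p = 0.0222). It was not called without control library 2 (-1.41), NASH library 1 (-2.50) or NASH library 2 (-1.45), nor by DESeq2 (adjusted p = 0.201), and it had LXR and P300 sites on the control lists only. Over the class, 1 of 9 tested phosphatases was raised with the authors' scaling (beside 2.83% of all genes) and 2 with TMM (beside 7.11%), with 0 lowered (beside 10.8% and 6.06%) by limma, edgeR or DESeq2 (1 by limma at an unadjusted p under 0.05) and a median change of 0.27.

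Of the 9 tested atypical Dusp genes, limma called 1 lowered and 0 raised with either scaling (3 and 0 at an unadjusted p under 0.05). Of all genes, 10.8% were lowered and 2.83% raised with the authors' scaling, and 6.06% and 7.11% with TMM. edgeR also called 1 lowered and 0 raised, while DESeq2 called 0 in either direction. Dusp3 (VHR), which acts on ERK and JNK, fell from 182 and 185 normalised tags to 121 and 91.0, a log2 change of -0.52 ± 0.18 (limma adjusted p = 0.00552, and 0.0391 with TMM). Its called windows were 2 neighbours in an intron, 1458 and 1744 bp past the TSS (chr11:101983233-101983433 and chr11:101982947-101983147), which fell from 46.5 and 44.7 to 19.7 and 14.6 and from 32.7 and 35.4 to 12.3 and 8.84. With only the windows within 1000 bp of the TSS, Dusp3 changed by 0.21 (limma adjusted p = 0.870), so the decrease lay in windows farther out. Dusp11, an RNA phosphatase, had the highest level of the family in control cells per length of window (273 normalised tags per kb, and 239 in NASH) and was not called.

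**Figure D2:**
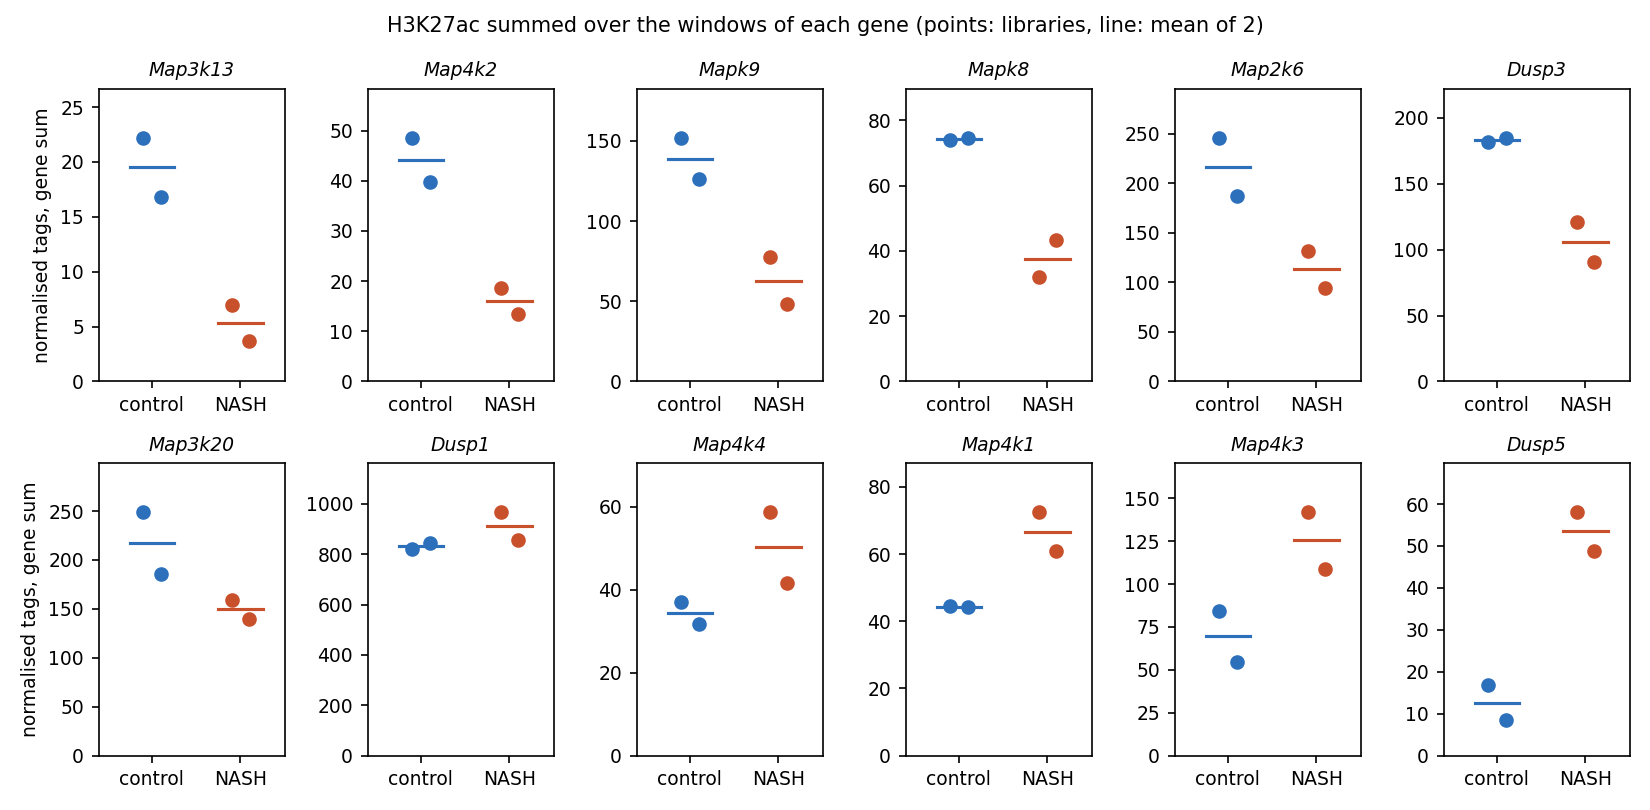
H3K27ac gene sums in normalised tags (vertical axes, from 0, each with its own range) of the 12 members called with either scaling, with 1 point per library and a line at the mean of the 2 libraries of a diet. The groups do not overlap in any of the 12 genes, which were chosen by calls on these same values. Members not called, such as Dusp11 and Mapk3, also have groups that do not overlap. Dusp1 shows the smallest relative gap of the raised genes.

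Counted by window, 4 of 272 tested member windows were raised (1.47%) and 12 lowered (4.41%) with the authors' scaling, where a call needs, beside the adjusted p under 0.05, a log2 change of 1 or more in size before the median is taken off. Among all 37317 windows tested 1.90% were raised and 4.49% lowered. With TMM the member counts were 11 (4.04%) and 8 (2.94%), beside 3.29% and 2.53%. The called windows of the family were thus about as frequent as among all windows. Between the scalings, 4 raised and 8 lowered windows were shared.

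Sites of the 3 factors were given as 1 list per factor and diet, so a gain or loss of a site has no replicate check. The lists differ in length between the diets, with 44463 and 51709 sites for LXR, 16109 and 38828 for ATF3, and 25219 and 52628 for P300 (control and NASH), and counts over the members move with that length. Member windows with an LXR site numbered 235 on the control list (49.3%, beside 52.7% of all windows) and 267 on the NASH list (56.0%, beside 57.7%). For ATF3 they were 106 (22.2%, beside 21.4%) and 209 (43.8%, beside 42.0%), and for P300 150 (31.4%, beside 32.3%) and 280 (58.7%, beside 58.9%). The family as a whole thus had sites about as often as all windows did.

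Sites on the NASH list only were found in 75 member windows for LXR (15.7%, beside 12.5% of all windows), 122 for ATF3 (25.6%, beside 24.2%) and 145 for P300 (30.4%, beside 29.1%). Sites on the control list only were found in 43 (9.01%, beside 7.53%), 19 (3.98%, beside 3.58%) and 15 (3.14%, beside 2.49%). A window with all 3 factors on the NASH lists and none on the control lists occurred 30 times in 20 members (6.29% of member windows, beside 3.76% of all). Of these 30 windows, 8 belonged to Map4k3 and 3 to Dusp4.

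Map4k3 had the largest share of windows with a site on the NASH list only, for each of the 3 factors, among the 15 members with at least 10 windows. Of its 19 windows, those with an LXR site went from 6 to 15, with ATF3 from 2 to 14 and with P300 from 2 to 16, control list to NASH list. Sites on the NASH list only covered 47.4% of its windows for LXR, 63.2% for ATF3 and 73.7% for P300. Among the 1625 genes with at least 10 windows the medians were 10.5%, 27% and 30.0%, and 17, 18 and 3 genes, Map4k3 included, had shares as high or higher. In open chromatin, 9 of the 19 windows were on the NASH-diet list only, whose time on the diet may differ from that of the LXR and P300 lists.

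H3K27ac at Map4k3 was spread over many weak windows. Of its 10 windows between genes and more than 20000 bp before the TSS, 7 had both NASH libraries above both controls. The share over all windows was not computed, and Map4k3 had been called on a sum that holds these windows. The count thus describes where the signal lay and was not tested. The farthest of the 10 windows (chr17:80801432-80801632) went from 8.45 and 2.21 to 18.7 and 12.0. It was raised with TMM only (limma adjusted p = 0.0302, and 0.0758 with the authors' scaling). It gained all 3 factors. The window 531 bp past the TSS (chr17:80727394-80727594) went from 7.39 and 3.54 to 16.0 and 15.1, also raised with TMM only, and had no site on any list. A window 9129 bp before the TSS went from 0 and 0.440 to 8 and 5.20 and gained all 3 factors, but had too few tags to test. When the sums were restricted to windows farther than 1000 bp from the TSS, Map4k3 was the only 1 of 41 tested members raised, and 8 were lowered. Over all genes 441 were raised and 1350 lowered there. With the windows within 1000 bp alone, Dusp5 and Dusp1 were raised and 2 lowered of 50 tested members. Over all genes these counts were 76 and 249. Dusp5 was not tested on its windows farther away. Near its TSS Map4k3 changed by 0.91 and was not called (limma adjusted p = 0.350).

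**Figure D3:**
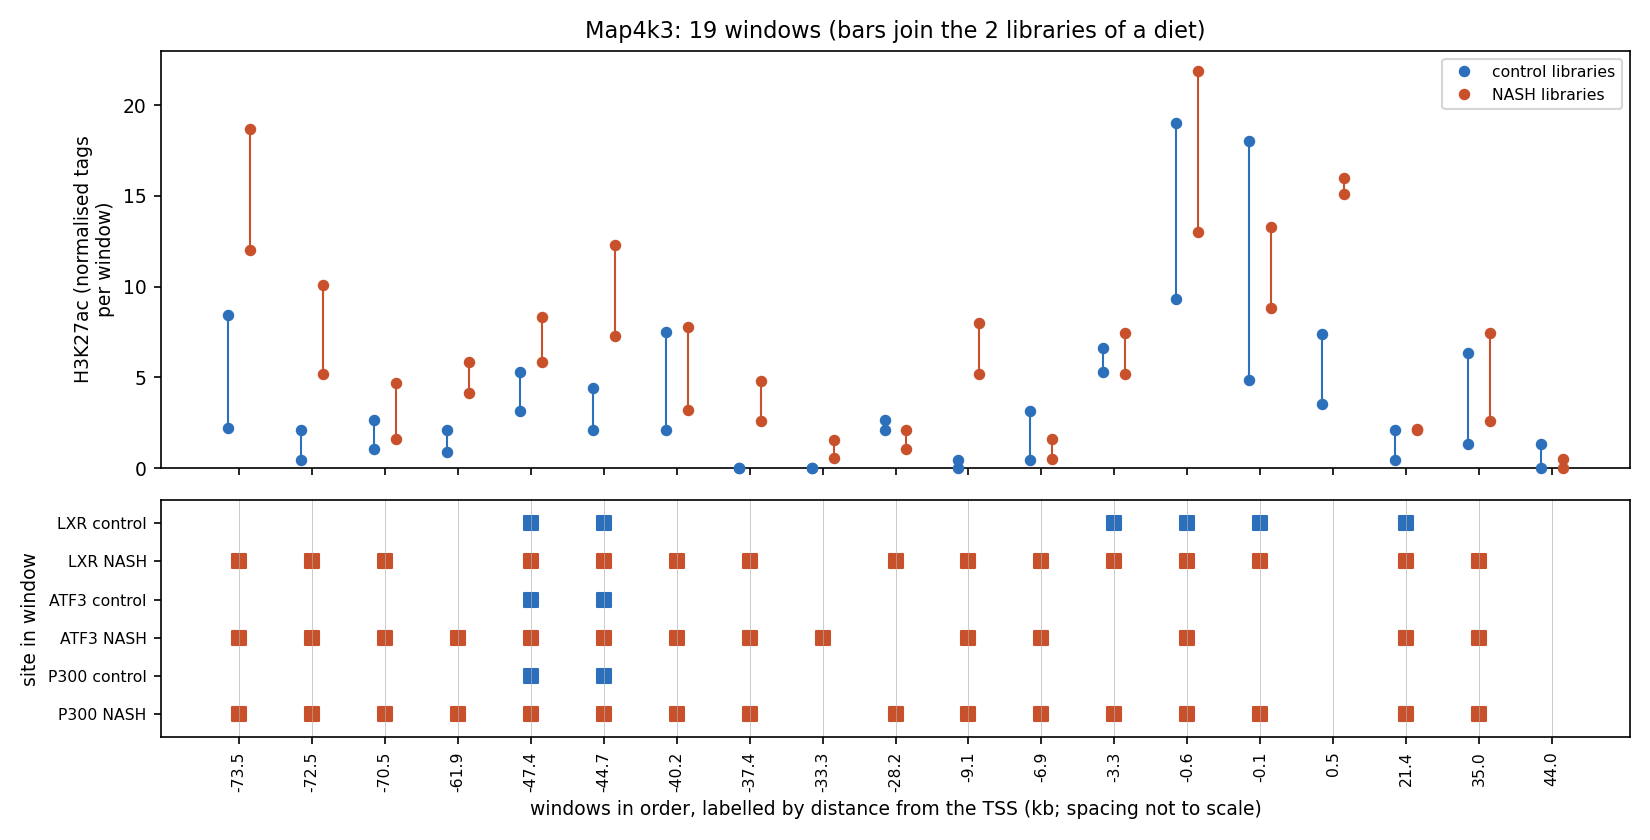
H3K27ac in the 19 Map4k3 windows, in order of their distance from the TSS in kb (horizontal axis, not to scale), with each library as a point above and sites of each factor and diet as squares below. P300 sites are in 2 windows on the control list and 16 on the NASH list, and ATF3 sites in 2 and 14.

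Dusp4, a nuclear MAP kinase phosphatase, had the next largest share of windows with a P300 site on the NASH list only among the 15 members with at least 10 windows, while by number Dusp6 had more of them (15, against 10 in Dusp4 and 14 in Map4k3). Of its 15 windows, 0 had a site on the control list and 10 on the NASH list, a share that 16 of the 1625 genes, Dusp4 included, reached. ATF3 sites went from 1 to 9 windows and LXR sites from 4 to 8. H3K27ac summed over Dusp4 was 59.1 and 34.0 normalised tags in control and 43.2 and 70.2 in NASH libraries, so the groups overlapped and the gene was not called (log2 change 0.58 ± 0.30, limma adjusted p = 0.554, and 0.162 with TMM). Dusp4 was not among the genes set for naming and was chosen after its sites had been seen. Dusp6 had P300 sites in 11 of its 30 windows on the control list and in 26 on the NASH list, and its H3K27ac did not differ beyond the spread of the libraries.

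From the control list to the NASH list, all windows of the table went from 32.3% to 58.9% with a P300 site and from 21.4% to 42.0% with an ATF3 site. By class, the MAP4K windows went from 20.5% to 76.9% with a P300 site and from 10.3% to 59.0% with an ATF3 site, where 19 of the 39 windows are those of Map4k3. The MAP3K windows went from 29.3% to 48.9% and from 24.8% to 37.6%. The phosphatase windows went from 29.4% to 63.0% with P300 and from 22.7% to 47.1% with ATF3, a move in the same direction as that of all windows. Of the JNK genes, Mapk8 went from 5 to 6 of 10 windows with P300 and from 1 to 5 with ATF3, and Mapk9 from 2 to 3 of 8 and from 1 to 2. An ATF3 site on the NASH list only stood in 40.0% of the Mapk8 windows, above the 27% median of genes with at least 10 windows. That share was reached by 313 of the 1625 genes. For P300 the Mapk8 share was 10.0%, below the median of 30.0%, and for LXR it was 10.0%, beside a median of 10.5%.

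**Figure D4:**
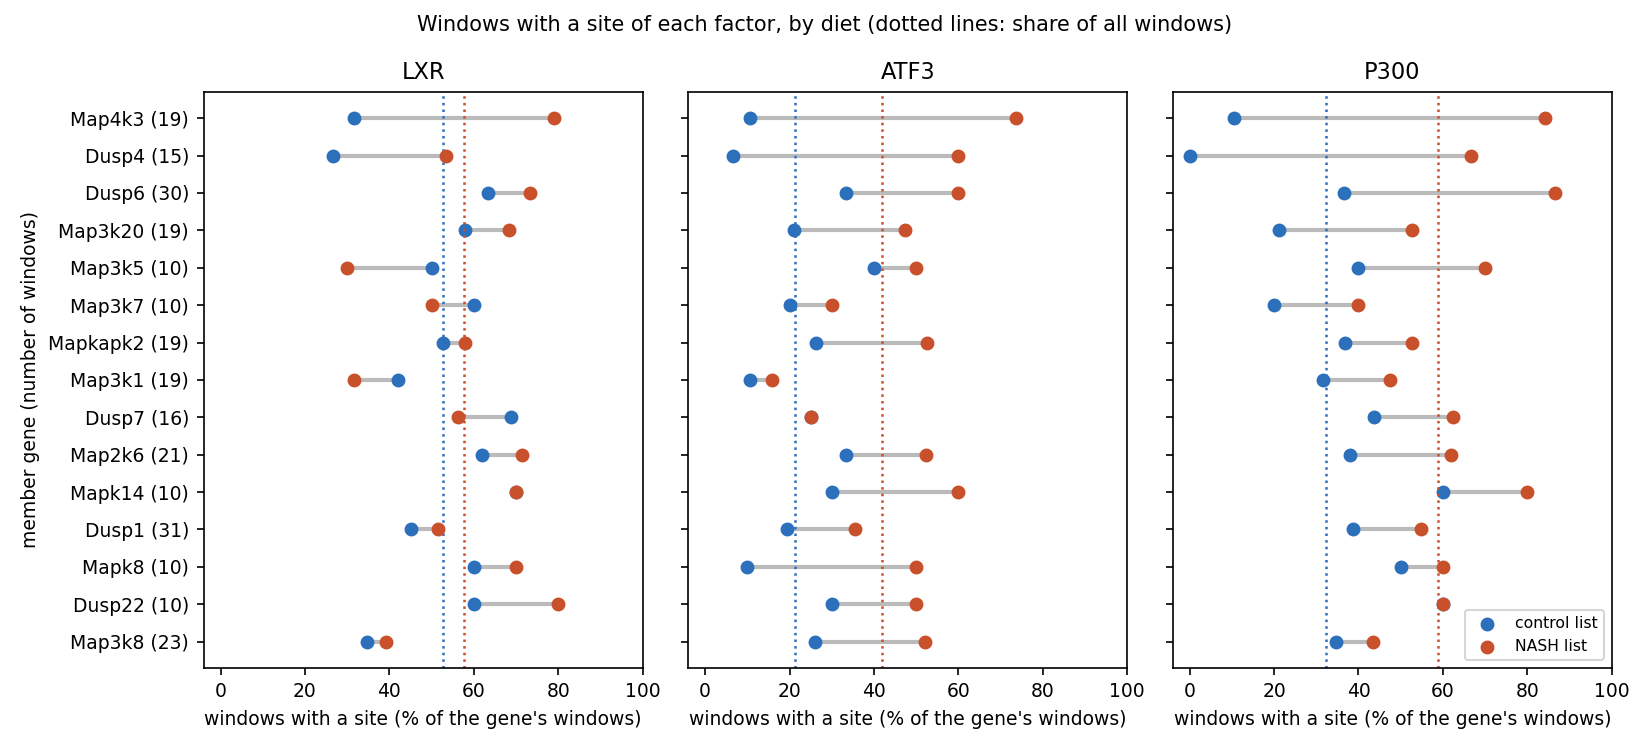
Share of each gene's windows with a site on the control list and on the NASH list (horizontal axes, percent), for the 15 members with at least 10 windows, whose numbers stand in brackets, with dotted lines at the share of all windows. Map4k3 and Dusp4 lie below the dotted control line and at or above the dotted NASH line for ATF3 and P300.

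At the printed promoters the lists differed. Over Dusp1 the ATF3 site (chr17:26508555-26508762), which contains the CRE, and the LXR site (chr17:26508491-26508763) were on the NASH lists only. P300 lay at the Dusp1 start on both lists (chr17:26508289-26508511 in control), with an enrichment score by the authors of 232, rank 42 of 25219 sites, on the control list and 276, rank 70 of 52628, on the NASH list. Over Dusp5, P300 had a site on the NASH list only (chr19:53528837-53529076), which contains the first CArG box. LXR had a site on both lists and ATF3 on neither. Over Dusp6 each of the 3 factors had a site on both lists, and over Mapk9 LXR and P300 did and ATF3 had none on either.

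Over the 70 member promoters, here with the 50 bases past the TSS, LXR had a site at 62.9% on both lists. Among promoters of genes with a window in the table, which all members have, the shares were 49.6% and 48.5%. ATF3 had a site at 18.6% and 31.4% of member promoters, beside 15.2% and 26.3%, and P300 at 50.0% and 67.1%, beside 36.1% and 52.2%. By the authors' enrichment score the highest LXR site of the family on either list belonged to Map3k20, in its window 24854 bp before the TSS (chr2:72260696-72260903 on the control list), at rank 40 of 44463 on the control list and rank 85 of 51709 on the NASH list.

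H3K27ac was then compared between windows with a site on the NASH list only and on the control list only. Member windows with a P300 site on the NASH list only had a median log2 change of 0.14 in H3K27ac (72 tested), beside 0.07 over all such windows, and those with a P300 site on the control list only -0.21 (13 tested), beside -0.06. For ATF3 the medians were 0.16 (62 tested), beside 0.13, and 0.05 (13 tested), beside -0.12, and for LXR 0.12 (33 tested), beside 0.17, and -0.18 (25 tested), beside -0.09. With P300 on the NASH list only 47 of the 72 windows (65.3%) lay above 0, beside 54.0% of all such windows, and with P300 on the control list only 3 of 13 (23.1%), beside 45.7%. For ATF3 they were 40 of 62 (64.5%, beside 58.1%) and 7 of 13 (53.8%, beside 41.5%), and for LXR 19 of 33 (57.6%, beside 60.6%) and 9 of 25 (36.0%, beside 43.4%). Windows of 1 gene share their libraries, and these shares were not tested. Of the 12 member windows lowered with the authors' scaling, 4 had a P300 site on the NASH list only, 2 an ATF3 site and 0 an LXR site. Among the 272 tested member windows, 72, 62 and 33 had such a site. Raised among these were 0, 1 and 0. These counts are small and were not tested. Member windows on the NASH-diet list of open chromatin only had a median change of 0.38 (12 tested), beside 0.35 over all such windows, and those on the control list only -0.11 (78 tested), beside -0.19.

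The genes around the cascades were described from 6 lists of 80 genes, of which 69 were tested. With the authors' scaling 4 were raised and 12 lowered, beside 2.83% and 10.8% of all genes, and with TMM 8 and 7, beside 7.11% and 6.06%. Among the RAS and RAF genes, which feed the ERK cascade, 6 of 12 were lowered with the authors' scaling (beside 10.8% of all genes) and 5 with TMM (beside 6.06%), and their median change was -0.36 relative to that of all genes. Rasgrp2, an exchange factor of the RAS family, fell from 73.9 and 51.7 normalised tags to 19.7 and 18.2 (log2 change -1.37 ± 0.30), and Rras2 from 99.3 and 78.3 to 44.3 and 27 (-1.04 ± 0.27). Sos1, Ksr1 and Rasgrp1 were lowered as well, and with TMM Rasgrp1 was lost and Shc1 was raised.

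Feedback inhibitors of RAS and ERK had 2 of 11 lowered with the authors' scaling, Spred1 and Spred2 (beside 10.8% of all genes). With TMM 1 was lowered (Spred2, beside 6.06%) and 2 were raised (Rasa1 and Rasa3, beside 7.11%). Gadd45a, whose product binds and activates the MAP3K MTK1, rose from 18 and 9.72 to 57.6 and 55.1 (log2 change 2.29 ± 0.34, limma adjusted p = 4.14e-04). It was the only 1 of 15 activators of MAP3K called with the authors' scaling (beside 2.83% of all genes raised). Gadd45b was added with TMM (beside 7.11%). Of 7 kinases downstream of the MAP kinases, Rps6ka2 (RSK3) was raised (beside 2.83% and 7.11% with the 2 scalings). Rps6ka1 (RSK1) was lowered with the authors' scaling only (beside 10.8%).

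Among 18 early response targets 1 was raised and 3 were lowered with the authors' scaling (beside 2.83% and 10.8% of all genes). With TMM 1 was raised and 1 lowered (beside 7.11% and 6.06%). Atf3 itself rose from 397 and 326 normalised tags to 552 and 534 (log2 change 0.88 ± 0.12, limma adjusted p = 0.00190), while Egr3 fell from 357 and 356 to 182 and 189 (-0.65 ± 0.13, limma adjusted p = 6.81e-05). Fosb and Myc were lowered with the authors' scaling only. Zfp36 (tristetraprolin), an mRNA decay factor controlled by p38 and MK2, rose from 725 and 716 to 927 and 853 (0.59 ± 0.09, limma adjusted p = 0.0319). It was the 1 called gene of 6 such factors (beside 2.83% of all genes raised with the authors' scaling and 7.11% with TMM). Egr3, Atf3 and Zfp36 kept their calls with TMM.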

How the data were processed

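The submitters' processing notes name the builds mm10 and GRCm38 and the tools HOMER, Bowtie2 and DESeq2, without versions. H3K27ac was deposited as a signal, HOMER tags per window scaled to 10000000 in each library (build mm10), per the file headers. Windows merged a control list and a NASH-diet list of open chromatin, the latter under another diet name in the headers than the NASH lists of LXR and P300. For LXR, ATF3 and P300 the authors deposited 1 site list per diet with a score per site, joined over both libraries, for P300 and LXR at an IDR of 0.05 per the file headers, a threshold not given for ATF3 in the sources used here. The 10 inputs and the peritoneal macrophage library were not analysed here.

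Multiplying by the header totals gave whole tags within 0.02 for 100% of values. The main test was limma-trend 3.58.1 (robust) on log2(value + 1) of gene sums and windows kept by filterByExpr of edgeR 4.0.16, with Benjamini-Hochberg adjustment over all genes or windows. Replicate libraries differed by more than sampling noise (chi-square per degree of freedom 2.14 and 1.78). A count of 0 allows 3 tags, or 3.17, 1.33, 1.60 and 1.56 normalised tags. With 2 against 2 libraries an exact permutation test cannot go below p = 0.333. Sites were matched by at least 1 bp. TMM, edgeR, DESeq2 1.42.0, another pseudocount, no filter, a replicate block, left-out libraries, promoter or distal windows, a stricter overlap and shorter lists were tried. Only the limma fit of gene sums with the authors' scaling was tested on simulated data, with known changes placed in genes with many tags. The window fits, TMM, edgeR and DESeq2 were not tested in this way.

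Members and lists were chosen with earlier results of these data known. Values are given for members called with either scaling, the highest of each class, the 3 with the most sites, and Mapk3, Mapk8, Mapk14, Map2k1, Map3k8, Mapkapk2, Dusp1 and Dusp6. Some named genes are not reported here.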

Additional observations from a re-analysis of the deposited data

How the results depend on the processing

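Counts of calls are given as raised and lowered. The call counts of the members depended on the scaling and the test. With TMM scaling the gene sums gave 5 members and 838 genes raised and 714 genes lowered, and the windows 11 members and 1229 windows raised and 943 windows lowered. edgeR on the recovered tags called 5 members raised, 851 genes raised and 747 lowered, and 13 member windows and 1411 windows raised. DESeq2 called 2 members and 289 genes lowered, and 1 member window lowered, with 432 windows raised and 200 lowered. Windows within 1000 bp of the TSS alone gave 2 members lowered, 76 genes raised and 249 lowered, with Dusp3 at 0.21 (limma adjusted p = 0.870) in place of its decrease, and windows farther away gave 1 member raised. Leaving out each library in turn gave 0 to 3 members raised and 0 to 9 lowered on gene sums (40 to 399 and 128 to 1962 genes), and 0 to 7 and 0 to 18 member windows (3 to 943 and 28 to 2541 windows), the lowest counts without NASH library 2. Same-numbered libraries did not deviate together (correlation 0.043 over genes and 0.049 over windows), so the numbers share only a label. With the replicate number as a block, 13 members and 2268 genes were lowered, and 8 member windows were raised and 21 lowered, with 1093 windows raised and 3063 lowered. The upper part of each site list by IDR score left 177 and 202 member windows with LXR, 59 and 155 with ATF3, and 98 and 219 with P300 (control and NASH), and an overlap of at least 50% of the site left 124 with P300 in control. Over the named genes and called windows under all alternatives, 409 values kept their side of the threshold, 27 passed it anew, 96 no longer passed and 1 reversed; the causes were not tested. An added alternative without the robust option, chosen after seeing the data, called 2 members raised and 7 lowered. Depth limits the 11 untested members and the weak windows of Map4k3, Map3k13 and Dusp5.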
